A study of Mus musculus with 6 samples.

Results

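Genes that activate transforming growth factor beta (TGF-beta), receive its signal and restrain it were followed in splenic regulatory T cells (Tregs) of NOD mice, the inbred strain that develops autoimmune diabetes. The set was fixed by name as 10 genes and taken as every probe set whose platform annotation gives 1 of these symbols alone. This found 22 probe sets for 9 of the 10 genes, of 45101 probe sets in all. Lrrc32, which encodes GARP, the protein that holds latent TGF-beta on the Treg surface, matched no probe set and was not analysed here.

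All 6 mice were female NOD carriers of the BDC2.5 T cell receptor transgene and of the Foxp3GFP reporter, so that most T cells could carry a single receptor specificity and Foxp3-expressing cells were green. The 3 mice called treated here were RAG1o/o and received 37.5 µg of the anti-CD3 antibody KT3 intravenously on 5 days in a row from day 17 of life; their cells were taken at an age of 29, 29 and 28 days, labelled 12, 12 and 11 days after treatment. The 3 mice called untreated were RAG1+/o, received nothing, and were 29, 28 and 28 days old. Spleen cells were sorted as CD4+ and GFP+ after gating out cells with B220, with CD8a or with CD11b/c, and each array held the RNA of 1 mouse, amplified in 2 rounds. A RAG1-null host makes no B cells and no T cells beyond the transgenic ones, and the untreated hosts can make both. Antibody and RAG1 genotype differed together, so their parts in any difference below cannot be told apart. No label describes how the Foxp3GFP reporter was built.

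TGF-beta is secreted bound to its own propeptide and signals only once freed from it. The integrin chain encoded by Itgb8, paired with the alpha V chain, can free it, and the active ligand then joins the type II receptor (Tgfbr2) to the type I receptor (Tgfbr1), a kinase that phosphorylates Smad3 and its close relative Smad2. Smad complexes raise, among others, the genes of their own inhibitors, and in T cells the pathway supports Foxp3 expression and the formation of Tregs outside the thymus.

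No difference of a member probe set between treated and untreated Tregs passed the test adjusted over all probe sets. With limma over 45037 probe sets, 0 of the 22 passed an adjusted p of 0.05, as did 0% of all probe sets, and the smallest adjusted p among the members was 0.961. At an unadjusted p under 0.05, 2 of the 22 were lower in treated Tregs, where 3.00% of all probe sets were, and 0 were higher, where 1.53% were. Those 2 were the brightest probe sets of Pmepa1 and Smurf2, both genes of inhibitors of the pathway. The treated and untreated ranges did not overlap, with treated lower, in 2 of the 22, both of Smurf2, against 5.02% of all probe sets, and with treated higher in 0, against 5.14%. Differences are given as treated minus untreated on the log2 scale throughout. Of the 22 differences, 17 were below 0 and 5 above, with a median of −0.17, while 42.0% of all probe sets were below 0 and their median was +0.05. Among brighter probe sets, with a mean log2 intensity of at least 8, 9 of 10 member probe sets and 54.9% of all had a difference below 0. The medians were −0.28 and −0.05. The count below 0 was 14 of 22 without treated replicate 2, 14 without untreated replicate 3 and 12 without both, where 52.5%, 40.4% and 49.6% of all probe sets were below 0.

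**Figure D1:**
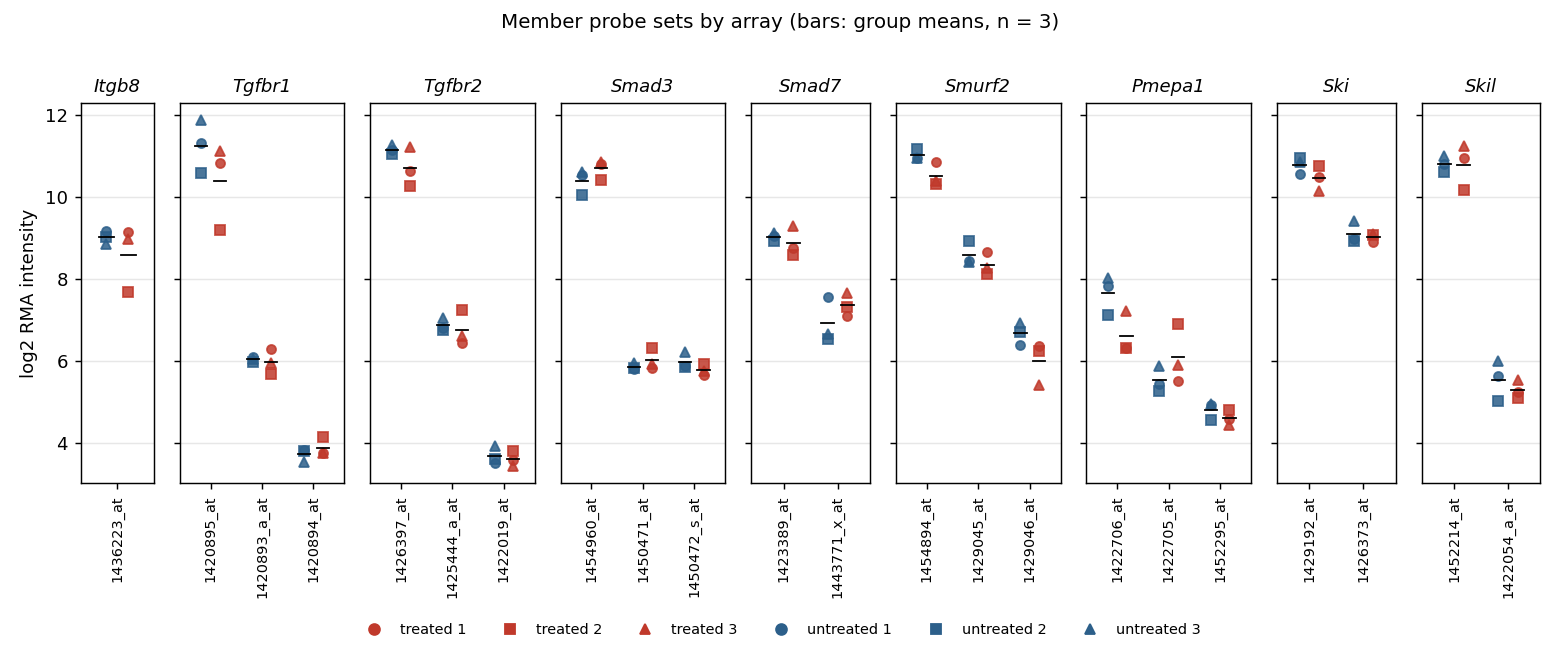
Log2 RMA intensity of each of the 22 member probe sets, with 1 point per array (red treated, blue untreated; circle, square and triangle for replicates 1, 2 and 3) and a bar at each group's mean (n = 3). The groups overlap in all probe sets but 1454894_at and 1429046_at of Smurf2, and treated replicate 2 lies far below the other arrays in the brightest probe set of Tgfbr1 and in Itgb8.

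The arrays were alike in overall level, with median intensities between 85.3 and 92.4. The median Pearson r with the other arrays was 0.955 for treated and untreated replicates 2 and 0.967 to 0.972 for the rest. Treated replicate 2 was the lowest of the 6 arrays in 34.8% of all probe sets with a mean of at least 8. It was the highest in 46.4% of the dimmer ones. Untreated replicate 2 was the lowest in 25.3% and the highest in 22.9% of the brighter ones, against 11% and 15.5% for untreated replicate 3. Untreated replicate 3 had the lowest myeloid and erythroid marker averages of the 6 arrays, and the lowest B cell average of the untreated ones. The 17 measured B cell markers, of 18 listed, averaged 6.73 to 6.90 in treated samples and 9.89, 9.91 and 7.21 in untreated replicates 1, 2 and 3, and their summed intensity ran from 2440 to 2728 and from 3640 to 38033. The 23 measured myeloid and dendritic markers, of 24, averaged 8.26 to 9.46 in treated samples but 9.01, 8.96 and 6.78 in the untreated ones, with summed intensities of 24417 to 73972 and 4555 to 55441. Defining markers stayed measurable, with the B cell gene Ms4a1 at 6.30 to 6.66 in treated samples and up to 12.95 in untreated ones, since intensities on these arrays have no true 0. The sort for GFP was meant to keep the Treg markers Foxp3, Il2ra, Ctla4, Ikzf2 and Tnfrsf18. They averaged 11.63, 11.69 and 12.13 in treated and 11.40, 11.10 and 11.90 in untreated replicates 1, 2 and 3. The 7 measured T cell markers, of 8, averaged 11.37, 11.36 and 11.89 in treated and 11.11, 10.60 and 11.82 in untreated replicates. Cd8a and Cd8b1 averaged 6.47 to 6.69 on the 6 arrays. The log2 ratio of 3′ to 5′ control probe sets ranged from 0.92 to 3.62 for actin and from 2.02 to 4.10 for Gapdh. For both it was lowest in untreated replicate 3 and highest in treated replicate 3. Other controls gave another order. For the transferrin receptor it ran from 1.89 in treated replicate 2 to 3.44 in untreated replicate 1, and for pyruvate carboxylase from −0.26 in untreated replicate 2 to 0.03 in untreated replicate 3. The part of these signals in the members' values was not tested. Values without an array are given below, but leaving out an array removes all of its signals together and cannot separate them. In RNA from many cells, fewer expressing cells and less RNA per cell cannot be told apart.

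Both receptor genes had lower means in treated Tregs, and 1 treated mouse made up much of the gap. Tgfbr1, encoding the type I receptor kinase, was at 10.83, 9.18 and 11.12 in treated mice 1, 2 and 3 in its brightest probe set, 1420895_at, and untreated mice 1, 2 and 3 gave 11.30, 10.57 and 11.86. Treated replicate 2 was lowest, untreated replicate 3 highest, and the groups overlapped. The difference was −0.87 (95% interval −2.16 to 0.43, limma adjusted p = 0.961), from 10.37 ± 1.05 to 11.24 ± 0.65 (SD, n = 3 each), or 1.83-fold lower in treated samples. It was −0.27 without treated replicate 2, −0.56 without untreated replicate 3 and +0.04 without both. Tgfbr2, encoding the type II receptor that binds the ligand first, measured 10.63, 10.27 and 11.20 in treated and 11.14, 11.04 and 11.26 in untreated replicates 1, 2 and 3 in 1426397_at. Treated replicate 3 lay within the untreated range and the other treated arrays below it. This probe set differed by −0.45 (interval −1.04 to 0.15), by −0.23 without treated replicate 2 and by −0.70 without treated replicate 3, where its unadjusted p was under 0.05. Across the 6 arrays, which the receptor genes share, their brightest probe sets had the same lowest and highest array and a Pearson r of 0.88. The 4 other receptor probe sets were far dimmer, with means of 3.65 to 6.82 where the median of all probe sets was 6.46, and differed by −0.11 to +0.16.

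Itgb8, whose product releases TGF-beta from its latent form, measured 9.13, 7.68 and 8.96 in treated and 9.16, 9.01 and 8.86 in untreated replicates 1, 2 and 3. Only treated replicate 2 left the narrow range of the other 5 arrays. The difference of −0.42 (interval −1.30 to 0.47) became +0.04 without that replicate and −0.49 without untreated replicate 3, the array with the lowest myeloid average. Itgb8 thus varied by 0.15 (SD, n = 3) among untreated and by 0.79 among treated mice, and it had 1 probe set.

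In their brightest probe sets Tgfbr1, Tgfbr2 and Itgb8 had the lowest of their 6 values in treated replicate 2. This is not particular to them. That array was the lowest in 7 of the 10 member probe sets with a mean of at least 8, and in 34.8% of all such probe sets. The sequences before the transcript starts of these genes are shown for comparison only. Each is the 250 bases before the start in RefSeq's GRCm38.p6 annotation, read 5′ to 3′ along the gene's strand, and ends at the base next to the annotated gene. Capitals mark CAGAC or its reverse complement GTCTG, the short element that Smad3 and Smad4 can bind.
Tgfbr1, chr4:47352972-47353221, strand +: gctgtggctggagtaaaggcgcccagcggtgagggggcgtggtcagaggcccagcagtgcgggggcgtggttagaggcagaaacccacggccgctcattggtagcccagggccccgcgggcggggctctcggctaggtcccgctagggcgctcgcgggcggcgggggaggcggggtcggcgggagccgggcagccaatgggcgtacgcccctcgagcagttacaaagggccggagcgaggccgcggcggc
Tgfbr2, chr9:116175364-116175613, strand -: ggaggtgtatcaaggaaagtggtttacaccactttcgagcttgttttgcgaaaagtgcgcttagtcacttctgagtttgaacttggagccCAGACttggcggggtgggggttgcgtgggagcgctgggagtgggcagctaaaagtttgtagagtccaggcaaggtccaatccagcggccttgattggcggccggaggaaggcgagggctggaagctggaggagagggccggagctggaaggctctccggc
Itgb8, chr12:119238277-119238526, strand -: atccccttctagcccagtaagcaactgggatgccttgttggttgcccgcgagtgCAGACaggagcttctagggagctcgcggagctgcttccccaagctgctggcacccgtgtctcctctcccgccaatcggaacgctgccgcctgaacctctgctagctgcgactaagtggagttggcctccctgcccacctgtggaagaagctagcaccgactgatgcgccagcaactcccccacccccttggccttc

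The element stood once in the windows of Tgfbr2 and Itgb8 and not in the printed window of Tgfbr1, which was 74.8% G and C. The window of a further Tgfbr1 start, not printed, held it once. Of all 32851 windows of this length, 42.2% held it on either strand, so its presence is common. RefSeq windows were matched for 6 of the 10 genes, 7 windows in all. The element was in 4 of the 7, and the palindrome GTCTAGAC, the full Smad-binding element, was in 0 of the 7 and in 0.167% of all windows.

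**Figure D2:**
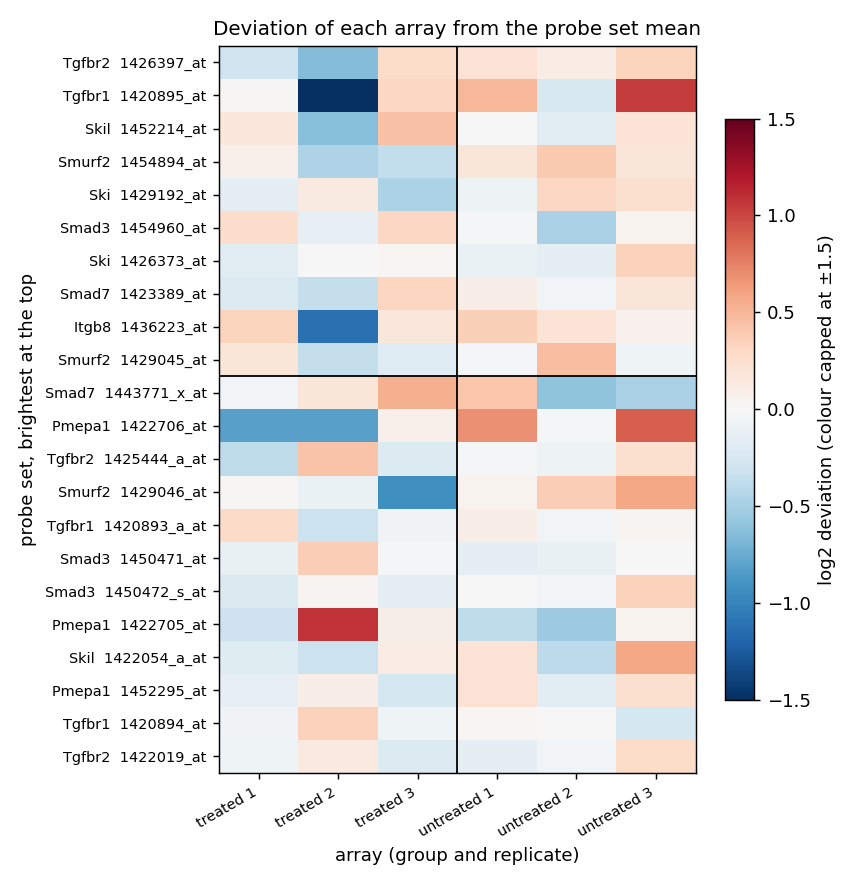
Log2 deviation of each array from the mean of the probe set over 6 arrays, for the 22 member probe sets ordered by brightness; the horizontal line separates means of at least 8 from dimmer ones and the vertical line separates treated from untreated arrays. Treated replicate 2 is the lowest array in 7 of the 10 brighter probe sets and the highest in 4 of the 12 dimmer ones.

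Smad3, the transducer, was the only member whose brightest probe set had a higher mean in treated Tregs. Its 1454960_at measured 10.81, 10.42 and 10.86 in treated and 10.52, 10.05 and 10.60 in untreated replicates 1, 2 and 3. The ranges overlapped, since treated replicate 2 lay below untreated replicates 1 and 3. The difference was +0.31 (interval −0.20 to 0.82, limma adjusted p = 0.961), and stayed between +0.14 and +0.44 with each array left out in turn. The dimmer probe sets of Smad3 differed by +0.16 and −0.21, both at means near 6.

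Among inhibitors, Pmepa1 had the lowest p of all members. Its product, a membrane protein also called TMEPAI, keeps receptor-regulated Smads from the receptor and is itself induced by TGF-beta. Its brightest probe set, 1422706_at, had a mean of 7.14 over the arrays, under the level of 8 used above for brighter probe sets. In it Pmepa1 measured 6.32, 6.32 and 7.21 in treated replicates 1, 2 and 3. The untreated replicates measured 7.82, 7.11 and 8.03. Treated replicate 3 was slightly above untreated replicate 2, and all other treated values were below all untreated ones. The means were 6.62 ± 0.52 and 7.66 ± 0.48 (SD, n = 3 each), 2.05-fold lower in treated Tregs, with a difference of −1.04 (interval −1.83 to −0.25; limma adjusted p = 0.961). It was −0.89 without treated replicate 2, −0.85 without untreated replicate 3 and −0.70 without both, and its unadjusted p stayed under 0.05 only where treated replicate 3 or untreated replicate 2 was the array left out. The array numbers in the labels set replicates 1 and 2 apart from replicates 3 and are adjacent within each replicate number, and no label calls this a batch; the difference was −1.15 within the former and −0.82 within the latter. Among untreated samples Pmepa1 was highest in replicate 3, where the B cell and myeloid averages were lowest.

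The other probe sets of Pmepa1 did not share this difference. The dimmer 1422705_at measured 5.51, 6.91 and 5.91 in treated and 5.44, 5.28 and 5.87 in untreated replicates 1, 2 and 3, a difference of +0.58 (interval −0.28 to 1.44) with treated replicate 2 far above the rest. The faint 1452295_at lay between 4.45 and 4.95 on all arrays and differed by −0.19. With the mean of all 3 probe sets the difference of Pmepa1 was −0.22. Of 18753 probe sets of other single genes at or above the median brightness, those most like 1422706_at over the 6 arrays by Pearson r were Cd55 (0.985), Csdc2 (0.978) and Ercc8 (0.970), with differences of −0.61, −0.29 and −0.39. Over only 6 arrays and so many candidates, such values describe likeness alone.

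Smurf2, a ubiquitin ligase that marks the receptor complex and Smads for breakdown, had differences below 0 in all 3 of its probe sets, as did Tgfbr2. The brightest, 1454894_at, measured 10.84, 10.31 and 10.39 in treated and 10.95, 11.16 and 10.95 in untreated replicates 1, 2 and 3. Treated replicate 1 came within 0.11 of its untreated counterpart, and the groups did not overlap. The difference was −0.51 (interval −0.97 to −0.05; limma adjusted p = 0.961), with means of 10.51 ± 0.29 and 11.02 ± 0.12 (SD, n = 3 each). The dim 1429046_at measured 6.36, 6.24 and 5.42 in treated and 6.39, 6.71 and 6.92 in untreated replicates, also without overlap and with a difference of −0.67. The remaining one, 1429045_at, ranged from 8.11 to 8.93 and differed by −0.25 with overlapping groups. Smurf2 in 1454894_at differed by −0.41 without treated replicate 2 and by −0.54 without untreated replicate 3, and its unadjusted p stayed under 0.05 only where treated replicate 1 was the array left out.

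Smad7, the inhibitory Smad that blocks the type I receptor and is induced by the signal, gave no common direction. Its brightest probe set, 1423389_at, measured 8.75, 8.59 and 9.28 in treated and 9.04, 8.91 and 9.13 in untreated replicates 1, 2 and 3. Treated values lay on both sides of the untreated ones, and the difference was −0.16 (interval −0.66 to 0.35). The dimmer 1443771_x_at, of a kind that can also bind related sequences, differed by +0.45 (interval −0.27 to 1.16), with untreated replicate 1 at 7.56 apart from 6.54 and 6.66. The mean of both probe sets gave +0.14.

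The corepressor genes Ski and Skil, whose products hold Smad complexes inactive on DNA, had overlapping values in both groups. Ski in 1429192_at measured 10.49, 10.76 and 10.15 in treated and 10.55, 10.93 and 10.86 in untreated replicates 1, 2 and 3, a difference of −0.31 (interval −0.81 to 0.18). Treated replicate 3 was lowest, and without it the difference was −0.16. Its second probe set differed by −0.08. Skil, which encodes SnoN and is a direct TGF-beta target, measured 10.95, 10.15 and 11.23 in treated and 10.79, 10.61 and 10.99 in untreated replicates in 1452214_at. Treated replicates 2 and 3 were the lowest and highest of the 6 arrays. The difference of Skil was −0.02 (interval −0.71 to 0.67), turning to +0.29 without treated replicate 2 and to +0.08 without untreated replicate 3, and its faint second probe set differed by −0.26. These intervals leave room for differences of about 0.7 in either direction for Skil and of 0.81 downward for Ski.

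**Figure D3:**
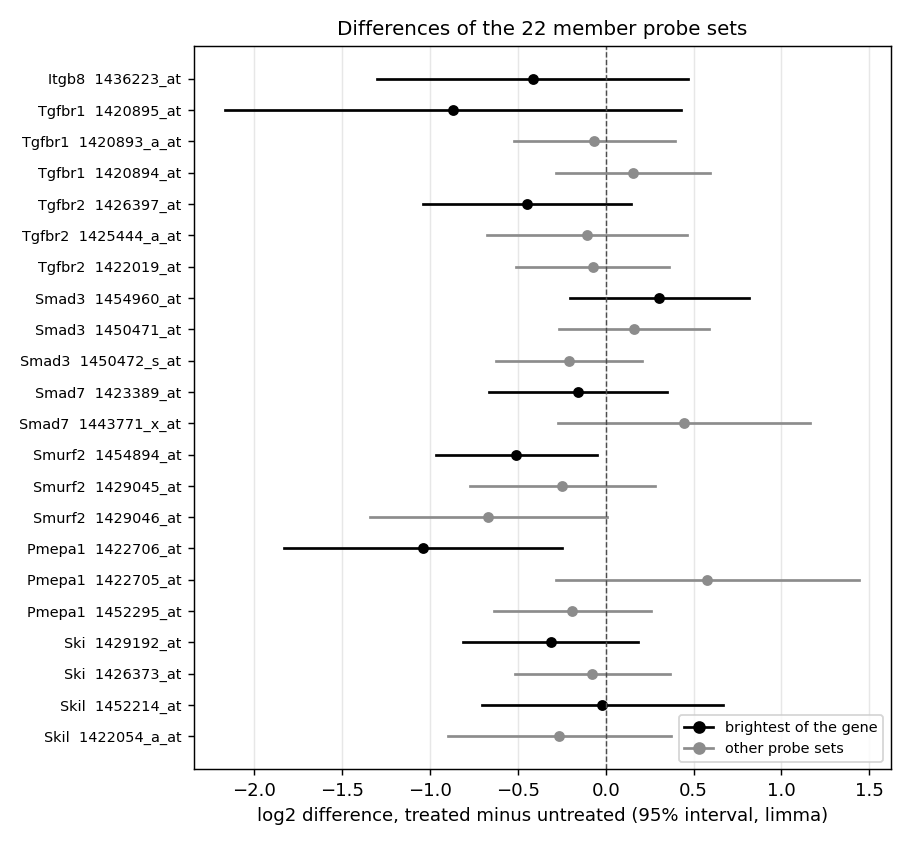
Difference of treated minus untreated Tregs on the log2 scale for each of the 22 member probe sets, with the 95% interval from limma (n = 3 arrays a group); black marks the brightest probe set of a gene and grey the others. The intervals of 1422706_at of Pmepa1 and 1454894_at of Smurf2 lie below 0, and those of the other 20 include it.

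**Figure D4:**
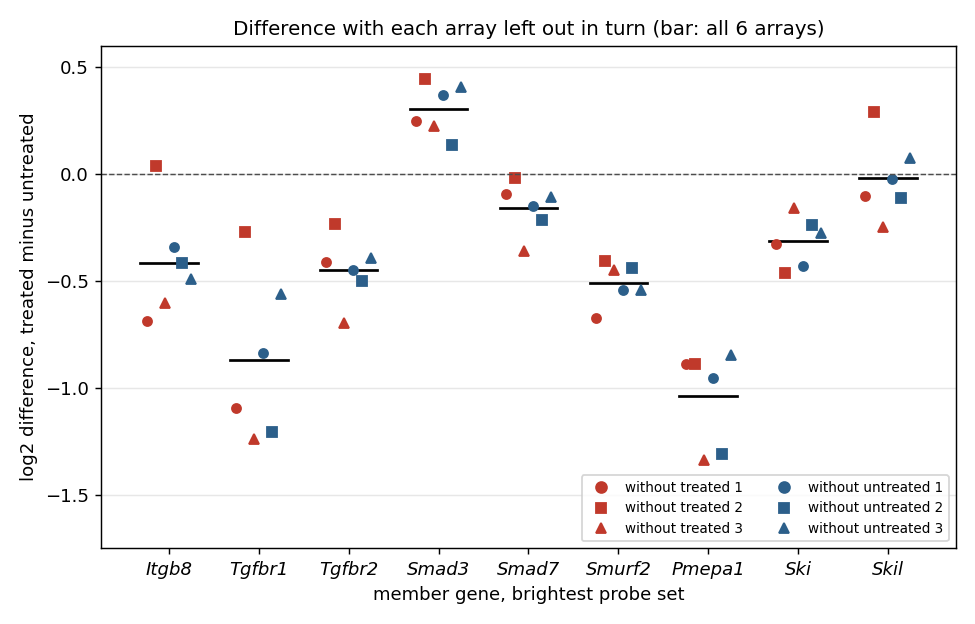
Log2 difference of the brightest probe set of each of the 9 members with 1 array left out at a time (points) and with all 6 arrays (bar). Itgb8 and Skil cross 0 without treated replicate 2, Skil also without untreated replicate 3, and Pmepa1 stays between −1.34 and −0.85.

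The rest of the pathway was described from a list of 75 further genes in 8 roles, of which 73 were measured, each by its brightest probe set. None passed an adjusted p of 0.05 in limma. At an unadjusted p under 0.05, 2 were lower, where 3.17% of 18193 genes were, and 4 higher, where 1.82% were. The groups did not overlap, with treated higher, in 7 of the 73, against 1021 of the 18193 genes. With treated lower they did not overlap in 2 of the 73, against 954 of the 18193. Of the 73, 25 differences were below 0 and 48 above (median +0.11), against 41.5% of all genes below 0 and a median of +0.05.

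Upstream of the receptors the values were scattered. Tgfb1, the main ligand gene of T cells, measured 6.65, 7.47 and 8.76 in treated and 6.94, 7.35 and 7.14 in untreated replicates, with treated replicates 1 and 3 at the ends of the range (+0.48, interval up to 1.63). The latent binding protein genes Ltbp3 and Ltbp1 differed by +0.71 and +0.35, with 1 of 3 probe sets of Ltbp1 opposite in sign, and the 8 ligand and latent complex genes had a median of +0.12. Itgav, encoding the alpha V partner of the Itgb8 product, was bright and even, at 11.30 to 11.90 in treated and 11.17 to 11.85 in untreated samples (+0.09). Furin, the protease gene for the TGF-beta precursor, differed by +0.66, and Mmp14 by −0.43 with 2 of its 3 probe sets of the opposite sign. Mmp9, a gelatinase gene strong in neutrophils, measured 10.37, 10.50 and 6.79 in untreated replicates 1, 2 and 3, the last also lowest for the myeloid markers, and differed by +1.71 (interval up to 4.02).

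Among the 11 further receptor genes, Acvr1b, Bmpr2 and Nrp1, a co-receptor on Tregs, differed by −0.50, −0.43 and −0.30, with 1 of 2 probe sets of Acvr1b opposite in sign, and 0 of the 11 had an unadjusted p under 0.05. Of the Smad genes, Smad4, the partner shared by all Smad complexes, measured 11.40, 11.68 and 11.45 in treated and 11.09, 10.68 and 11.14 in untreated replicates 1, 2 and 3. All treated values of Smad4 were above all untreated ones, with a difference of +0.54 (limma adjusted p = 0.961), and 1 of its 3 probe sets pointed the other way. Smad2 differed by −0.31, with the opposite sign in 1 of its 2 probe sets, and the faint Smad6 by +0.24. Among 17 regulators the differences balanced (9 below 0, median −0.01), with Usp15 at −0.57, Strap at −0.53 and Bambi at +0.29. The transcription partners Runx3, Runx1 and Tgif2 differed by +0.40, +0.32 and +0.24, with 2 of 6 probe sets of Runx1 opposite. In the non-Smad branch Traf6, a ubiquitin ligase gene, measured 8.79, 7.88 and 8.66 in treated and 9.19, 9.82 and 9.09 in untreated replicates. Its groups did not overlap (−0.93, limma adjusted p = 0.961), although 3 of its 5 probe sets had the opposite sign, while Tab1 and Map3k7 differed by +0.40 and +0.36, with 1 of 2 and 1 of 6 probe sets opposite.

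Genes that TGF-beta is known to induce or repress had mostly higher values in treated Tregs, with 11 of 12 measured differences above 0 and a median of +0.43, against 58.5% of all genes and a median of +0.05. The count was 9 without untreated replicate 3 and 10 or 11 with any other array left out, and the median was +0.27 without treated replicate 3. The list also holds Foxp3, which marks the sorted cells, at +1.19 (limma adjusted p = 0.961). Cdkn1a, a cell cycle inhibitor gene, measured 8.48, 8.99 and 9.04 in treated and 8.31, 8.15 and 8.37 in untreated replicates 1, 2 and 3. The matrix signalling gene Ccn2 measured 7.29, 6.95 and 7.41 in treated and 6.84, 5.58 and 6.76 in untreated replicates. In both genes all treated values were above all untreated ones, with differences of +0.56 and +0.82, neither passed the test, and the second probe set of Cdkn1a had the opposite sign. Foxp3 and Id1 also had all treated values above all untreated ones. That made 4 of the 12 response genes, where 1021 of all 18193 genes had this pattern. Itgae, encoding the CD103 integrin chain that TGF-beta induces in T cells, was at 12.43, 12.62 and 13.27 in treated and 12.45, 11.93 and 12.88 in untreated replicates, overlapping and +0.35 apart. Myc, which TGF-beta represses in many cells, was the only measured one below 0, at −0.86. Since the list holds induced and repressed genes alike, the count above 0 gives no direction of the signal. Tgfbi, singled out after its values were seen, was at 6.89 in untreated replicate 3 and at 9.65 to 12.48 on the other arrays, while the myeloid markers were also lowest in untreated replicate 3. Its difference was +1.38 (interval −1.65 to 4.40), and the part of other cells in it was not tested.

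**Figure D5:**
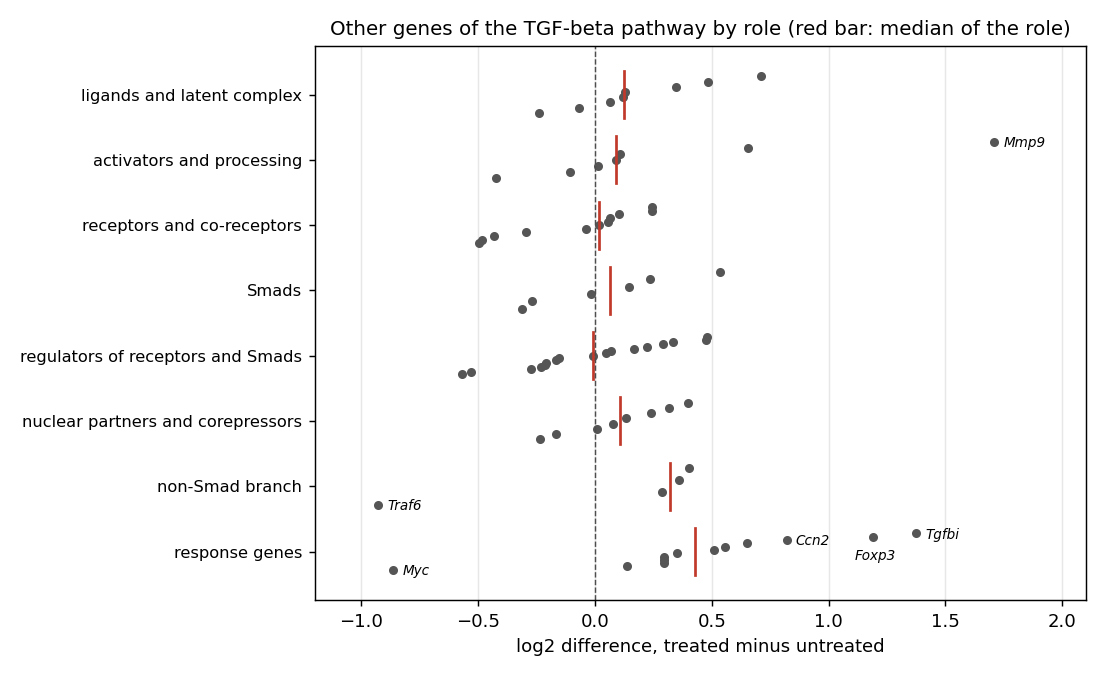
Log2 difference of treated minus untreated Tregs for 73 further genes of the pathway by role, 1 point per gene (brightest probe set) and a red bar at the median of each role. Response genes have the highest median, +0.43, and genes beyond 0.8 in size are named; 0 of the 73 passed an adjusted p of 0.05.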

How the data were processed

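Intensity values had been made by the authors with RMA in GenePattern, per the series' design text, from Affymetrix M430v2 arrays, and deposited as RMA intensities on a linear scale; no version is stated. RMA evens out array distributions, so a change common to most transcripts could not be seen, and depth has no meaning here beyond the number of arrays. Here log2 was taken with no further normalization, 64 control probe sets were set aside, and limma 3.58.1 in R 4.3.3 (lmFit, eBayes) compared 3 with 3 arrays over all 45037 probe sets, each fitted separately, with Benjamini-Hochberg adjustment at 0.05. Each array is 1 mouse, so p-values measure the spread between mice. No detection calls were used. Symbols came from the platform annotation, with 34945 probe sets under 1 symbol, 932 under several and 9160 under none. By gene identifier 34741 probe sets were matched to a RefSeq symbol, which was then used whether or not it differed. Members were matched on the annotation's own symbol. Further pathway genes were named by rule: 3 a role with the smallest p, plus Tgfb1, Itgav, Smad2, Smad4 and Itgae. The rule's genes like Lrrc32 could not be found. Members, lists and tests were chosen with earlier results of these data known. The fit was checked on simulated data with log2 differences of 3, larger than that of any member probe set. That check does not tell how well smaller differences would be found. Alternatives were a replicate block, array number, age, a dim filter, quantile and median scaling, trend with robust, array weights, each array left out, 1 or all probe sets a gene, linear means and an adjusted p of 0.1. Figures were drawn with matplotlib 3.10.9.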

Additional observations from a re-analysis of the deposited data

How the results depend on the processing

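The count of 0 member probe sets passing held under every alternative run, an adjusted p of 0.1 included. Over all probe sets 0 passed, except 5 with array weights, 10 without both treated replicate 2 and untreated replicate 3 (an alternative chosen after seeing the data), and 0 to 59 with 1 array left out, the 59 without untreated replicate 3. The 2 member probe sets lower at an unadjusted p under 0.05 became 3 with median scaling, 1 with age as a covariate and 1 without dim probe sets. The count was 0 without both of those arrays. With 1 array left out it was 0 to 2, and 0 without treated replicate 2 or without untreated replicate 3. The count higher was 0 to 1, with 1 without treated replicate 1 or untreated replicate 1. Differences were below 0 in 11 of 13 member probe sets without dim probe sets and in 8 of 9 with 1 probe set a gene.

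With the replicate number as a block 3 member probe sets were lower at an unadjusted p under 0.05 and 0 passed over all probe sets. The brightest probe set of Tgfbr1 was the one added, lower in treated samples by pair at −0.47, −1.39 and −0.74, with a limma adjusted p = 0.733 under the block. The numbers did not pair the arrays clearly: deviations of same-numbered arrays correlated at 0.451, 0.083 and 0.088, and not every array correlated best with its own number.

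Skil was +0.10 with age, +0.09 after quantile normalization, +0.16 with array weights, 0.039 from linear means, +0.39 without both arrays, and −0.25 to +0.29 with 1 array left out. Tgfbr1 was 0.036 and Smad7 0.034 without both arrays, and they ranged from −1.24 to −0.27 and from −0.36 to −0.02 with 1 array left out. Smad7 was +0.14 with the mean of its probe sets. Itgb8 ranged from −0.69 to +0.04 with 1 array left out. The brightest probe sets of Smad3, Tgfbr2, Smurf2, Pmepa1 and Ski kept their direction in every alternative run; both dimmer probe sets of Tgfbr2 and the dimmer one of Ski did not. The cause of these changes was not tested.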
